A study of Mus musculus with 18 samples.

Results

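Hearts of mice carrying a cardiac-specific tumour necrosis factor alpha (TNF) transgene were compared with hearts of FVB mice, an inbred albino strain, both at 3 weeks of age. The members were chosen by the titles of the arrays, and they make up 12 of the 18 columns of the series: 6 TNF transgenic (3 female, 3 male) and 6 FVB. The columns of FVB female 1 and FVB female 2 do not differ in any probe set and were counted as 1 sample, which leaves 11 distinct arrays, 5 FVB (2 female, 3 male) and 6 transgenic, of 17 in the series. The study followed transgenic hearts through compensated hypertrophy into dilated failure per the labels, and the arrays of 13 and 40 weeks entered only the estimate of the spread. The labels give the transgene no promoter and no line, and leave unsaid whether each array had its own animal. The p-values therefore rest on the spread among these arrays, part of which may be technical.

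TNF is a cytokine made mainly by macrophages, and its receptors signal through NF-kB and the MAP kinases. When heart muscle itself makes it, inflammatory cells enter the heart and the muscle remodels. Total RNA of whole heart was measured, so fewer cells of a type and less RNA per cell cannot be told apart in any result below. A whole heart holds cardiomyocytes beside fibroblasts, endothelium and resident macrophages. Their genes are read together on each array.

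The values are signals of probe sets, groups of short oligonucleotides that each read a transcript, on a linear scale. Signals under a floor of 44.9 were set to it, and differences are log2 of transgenic over FVB, averaged over the sexes with equal weight, with the SE (also after ±) and the Benjamini-Hochberg adjusted p of limma. A gene was called at an adjusted p under 0.05, and is described by its probe set of highest signal. Array values are listed for FVB in the order female 1, female 3, male 1, male 2 and male 3, and for the 6 transgenic arrays as the lowest and the highest with the median. They are printed as deposited, so values under the floor appear too. Where FVB arrays lie under it, the size of the difference depends on the floor: that is so of 4 of the 5 for Aif1, B4galnt1, Cst7, Il1rn, Napsa and Tnf, and of 3 for Ltb, Marco, Ptprc and Ubd. The transgene itself checked the labels: Tnf read 125, 30.1, 27.1, 12.5 and 25 on the FVB arrays and 5476 to 11343 (median 10258) on the transgenic ones.

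FVB female 1 stood apart before any comparison. Its Spearman correlations with the other 10 arrays ran from 0.775 to 0.856, while the other FVB arrays correlated with one another at 0.956 to 0.964. On FVB female 1, 7.47% of signals lay at or under the floor, against 23.9% to 28.4% on the other 10. Its 5th percentile was 38, against 4.1 to 8.9 on those, so its dim end read higher. On 2 arrays labelled male, FVB male 1 and FVB male 2, the X-inactivation transcript Xist read 1381 and 2706, against 5.9 on FVB male 3. The Y-linked Eif2s3y read 299 and 67.4 there against 545 on FVB male 3, and 115 and 40.9 on FVB female 1 and FVB female 3, so these 2 arrays also differ from each other. The contrast averages over the sexes as labelled, and with the sexes pooled 2725 probe sets were called. The 3' to 5' ratio of the Actb control probe sets, a sign of RNA length, was 1.29 to 1.97 on FVB and 1.12 to 1.44 on transgenic arrays (exact permutation p = 0.0043, two-sided). That of Gapdh was 0.97 to 1.18 and 0.878 to 1.14 (exact permutation p = 0.292). As a check of the tissue, none of the 22 cardiomyocyte markers on the array lay at the floor on all arrays of a group. The part of the RNA length in the results was not tested, and the counts below are also given without FVB female 1. The sexes have equal weight, so without that array FVB female 3 alone stands for the female controls. Without FVB male 1 and FVB male 2 as well, FVB male 3 alone stands for the male ones.

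Rises and falls were close in number, and the rises reached further. Of 12422 probe sets the brighter 7453 were tested, and 3454 of them (46.3%) were called, 1782 higher (23.9%) and 1672 lower (22.4%). Rises made up 51.6% of the calls, but 46.4% with quantile normalisation and 48.7% with a common median. Past 2-fold there were 749 higher (10%) and 362 lower (4.86%), past 4-fold 257 and 11 (3.45% and 0.148%), and past 8-fold 85 and 3 (1.14% and 0.0403%). The transgenic arrays all lay above the FVB arrays in 1050 tested probe sets (14.1%) and all below in 690 (9.26%), and in 9.23% and 6.2% of all 12422. Falls collected among the brightest probe sets. In the brightest of 10 equal classes by signal, 39.3% fell and 19.3% rose, with a median difference of -0.19, while in the other classes 16.6% to 25.2% fell and 19.97% to 26.98% rose.

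Without FVB female 1 the test called 3004 probe sets, 1581 higher and 1423 lower, and 2569 (1443 and 1126) without FVB male 1 and FVB male 2 as well. Of the 3454 calls, 2639 were called again in the same direction and 0 in the opposite one, and 339 were called only without that array. Leaving out FVB female 3, so that FVB female 1 was the only female control, raised the probe sets called at least 2-fold lower from 362 to 580. That count therefore rests on which female control is used, while leaving out any other single array gave 329 to 415 of them.

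**Figure D1:**
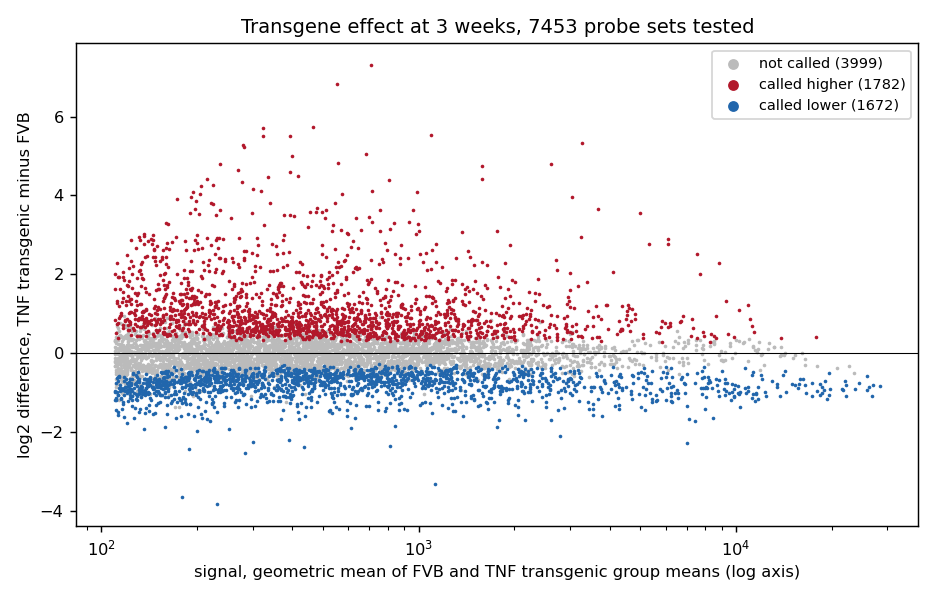
Each point is 1 of the 7453 tested probe sets, with its signal (geometric mean of the FVB and transgenic group means, log axis) against its log2 difference, transgenic minus FVB. The 1782 called higher reach much larger differences than the 1672 called lower, and the brightest probe sets lie mostly below 0.

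**Figure D2:**
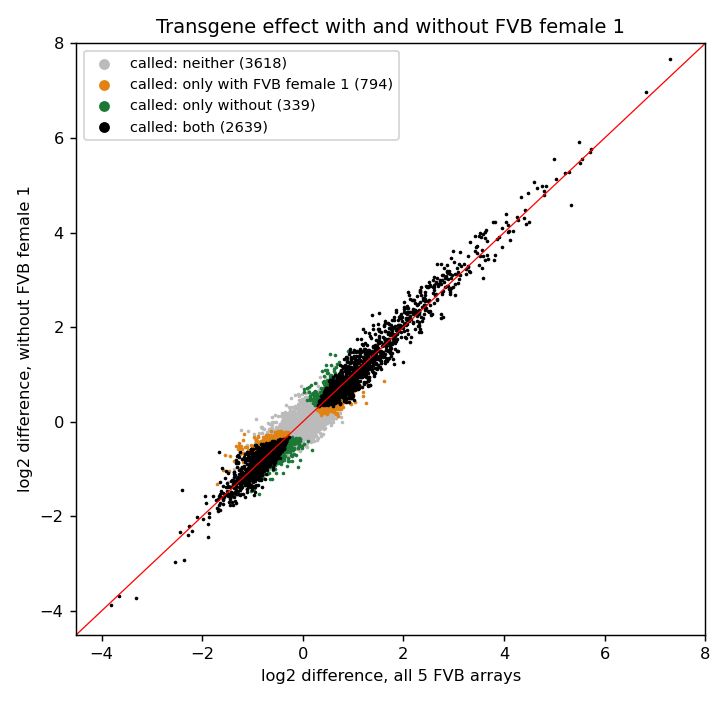
Each point is a probe set tested both with all 5 FVB arrays (horizontal axis) and without FVB female 1 (vertical axis), as log2 difference, coloured by where it was called, and the line marks equal values. The 2639 called both ways follow the line and the 794 and 339 called one way lie at the edge of the uncalled cloud around 0.

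Called genes outside the function lists below, the cell markers and the lists of known immune and metabolic genes show how far single genes moved. The rule took the 10 highest and the 10 lowest called differences whose arrays do not overlap and which were called without FVB female 1 as well. The highest come first. Fpr2, a formyl peptide receptor that guides phagocytes, lay under the floor on all 5 FVB arrays and read 931 to 1667 (median 1219.8) on the transgenic ones, which is at least 27.7-fold higher. Napsa, an aspartic protease, read 75.3, 19.9, 11.6, 11.7 and 10.9 against 488 to 1042 (median 926), a log2 difference of 4.05 (SE 0.22, adjusted p = 7.2e-10). Only FVB female 1 was above the floor among the controls. Marco, a scavenger receptor of macrophages that takes up bacteria, read 44.6, 13.5, 73.7, 11.1 and 62.7 in FVB. In transgenic hearts it read 568 to 949 (median 792), with a difference of 3.86 (SE 0.25, adjusted p = 4.97e-09), and the groups lie far apart.

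Acod1, which makes itaconate in activated macrophages, read 152, 47.6, 77.3, 26.4 and 52.8 in FVB against 627 to 981 (median 818) in transgenic hearts, a difference of 3.51 (SE 0.28, adjusted p = 7.43e-08). Bcl3, a nuclear IκB protein that binds NF-kB subunits, read 254, 64.6, 66.8, 44.7 and 48.4 against 732 to 1151 (median 848), a difference of 3.43 (SE 0.26, adjusted p = 3.72e-08). In both genes FVB female 1 was the highest control, and the difference was larger without it, 3.93 and 3.92. Tmem176a, a membrane protein of dendritic cells and macrophages, read 161, 246, 244, 264 and 242 against 1997 to 2677 (median 2157), with a difference of 3.32 (SE 0.20, adjusted p = 2.89e-09). Apbb1ip, an adaptor that activates integrins through Rap1, differed by 3.46 ± 0.21 and Plac8, a small cysteine-rich protein of myeloid and lymphoid cells, by 3.52 ± 0.17. H2-D4 and H2-M2, class I histocompatibility genes, differed by 3.67 ± 0.35 and 3.62 ± 0.23. Class I genes are alike in sequence and can share signal on these arrays, so which of them rose is uncertain.

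Among the 10 lowest was Corin, the membrane protease of cardiomyocytes that cuts the precursor of atrial natriuretic peptide. It read 1542, 1873, 1246, 1411 and 2038 in FVB against 349.8 to 600.1 (median 431) in transgenic hearts, a difference of -1.86 (SE 0.19, adjusted p = 1.2e-06). The highest transgenic array lay far under the lowest FVB array. Ech1, an enzyme that handles unsaturated fatty acids in mitochondria and peroxisomes, read 16965, 13087, 9732, 11099 and 12947 against 2774 to 5766 (median 4070.5), a difference of -1.67 (SE 0.13, adjusted p = 7.05e-08). Art1, a muscle enzyme that attaches ADP-ribose to arginine of surface proteins, read 3647, 3243, 2649.8, 3119 and 3407 against 592 to 1974 (median 926), a difference of -1.68 (SE 0.16, adjusted p = 3.65e-07). The rule required the groups to be apart in all 3.

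Phkg1, the catalytic subunit of muscle phosphorylase kinase, which switches on glycogen breakdown, read 384, 211, 129, 188 and 256 against 51.2 to 101 (median 61.2), a difference of -1.78 (SE 0.19, adjusted p = 1.78e-06). Penk, the enkephalin precursor, fell by a similar amount (-1.94 ± 0.23, and -1.57 without FVB female 1, where it was highest). Acot1, a cytosolic thioesterase of long-chain acyl-CoA, read 403, 226, 204, 169.8 and 394 against 39.2 to 133 (median 73.7), a difference of -1.93 (SE 0.27, adjusted p = 2.89e-05). Homer2, a scaffold of calcium signalling, differed by -1.65 ± 0.22, and Lrg1, a secreted leucine-rich glycoprotein, by -1.59 ± 0.19. Entpd5, which hydrolyses UDP in the endoplasmic reticulum, had the largest fall of the 10, -2.25 ± 0.32. Cryl1, a lens crystallin-like dehydrogenase, met the rule at -1.66, but FVB female 1 read 6500 against 334 to 476 on the other FVB arrays, the difference without it was -0.63, and another probe set of Cryl1 was called higher by 0.68.

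**Figure D3:**
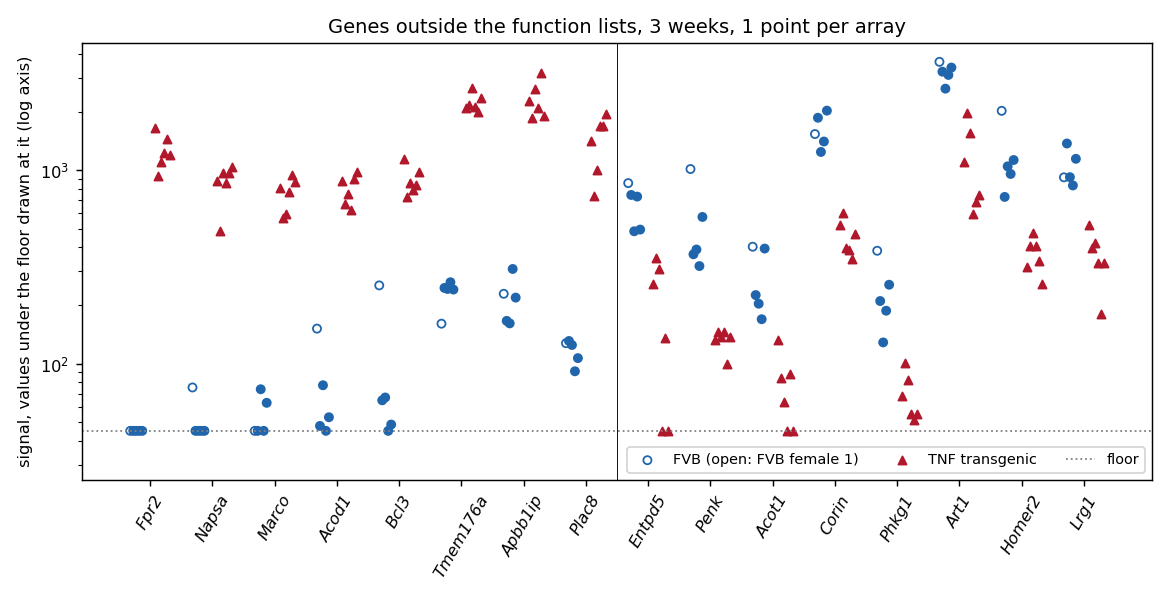
Signals on every array (log axis, values under the floor of 44.9 drawn at it) for 16 called genes outside the function lists, FVB as circles with FVB female 1 open and TNF transgenic as triangles. The 8 genes on the left lie higher on all 6 transgenic arrays than on any FVB array, and the 8 on the right lower. The rule that chose them required this.

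NF-kB is the main transcription factor downstream of TNF receptors, and interferon-regulated genes carry another short motif, the interferon-stimulated response element (ISRE). The 250 bases upstream of each start in RefSeq (GRCm38.p6) were searched on both strands for an NF-kB pattern (GGG, any 2 bases, TTTCC) and an ISRE pattern (GAAA, any 2 bases, GAAA). An NF-kB match lay upstream of 14 of the 149 genes called at least 4-fold higher that have such a sequence (9.4%), of 3.38% of the genes called higher, of 2.04% of all genes tested and of 1.65% of all RefSeq genes (1.41% of all promoters). Among genes called at least 2-fold lower, 0 of 197 had one. An ISRE match lay upstream of 9.4%, 4.59%, 2.98%, 3.46% and 1.52% of the same sets (2.98% of all promoters). A match is a run of letters and no proof of binding. Many of the genes at least 4-fold higher are known immune genes, a list in which 14 of 115 (12.2%) had an NF-kB match. Further patterns, of the oestrogen-related receptors (TCAAGGTCA) and of lysosomal genes (TCACGTGA), lay upstream of 0.261% and 1.89% of tested genes, and of 0 of 197 and 1 of 197 called at least 2-fold lower. The lysosomal pattern lay upstream of 1.9% of genes called higher and of 1 of 149 at least 4-fold higher. In the lists below it lay upstream of 1 of 21 lysosomal hydrolases and 2 of 19 lysosomal membrane and proton pump genes. The receptor pattern lay upstream of 1 of 51 mitochondrial genes and 0 of 15 of branched-chain breakdown.

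The windows below show the match in capitals with up to 30 bases on each side, upstream of the start and written 5' to 3' on the gene's strand, for genes called at least 4-fold higher. They were chosen after their values were seen, and a window can hold a further match: that of Cxcl1 has a second one in lower case, bases 89 to 80 before the start. Ltb is a membrane-bound cytokine of the TNF family (difference 4.99), Ccl9 a chemokine (4.43), Il1rn the interleukin-1 receptor antagonist (3.97), Marco the scavenger receptor above (3.86), Serpina3n a secreted protease inhibitor (2.31), Cxcl1 a neutrophil chemokine (2.19) and Ubd a ubiquitin-like modifier (2.02). The Tmem176a window also holds the match of its neighbour Tmem176b (2.04), which is transcribed the other way from the same stretch.
Ltb (chr17:35194390-35194459, plus strand, bases 87 to 78 before the start): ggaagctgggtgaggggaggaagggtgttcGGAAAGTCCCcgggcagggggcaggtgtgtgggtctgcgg
Ccl9 (chr11:83578637-83578701, minus strand, bases 35 to 26): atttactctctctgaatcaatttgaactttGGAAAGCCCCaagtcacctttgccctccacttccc
Il1rn (chr2:24345290-24345359, plus strand, bases 51 to 42): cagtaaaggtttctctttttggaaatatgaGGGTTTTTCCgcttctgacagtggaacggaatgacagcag
Marco (chr1:120505025-120505084, minus strand, bases 30 to 21): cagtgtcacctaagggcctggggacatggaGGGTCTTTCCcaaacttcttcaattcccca
Tmem176a (chr6:48841367-48841436, plus strand, bases 86 to 77): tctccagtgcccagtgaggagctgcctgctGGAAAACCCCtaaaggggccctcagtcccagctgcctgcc
Serpina3n (chr12:104406507-104406576, plus strand, bases 171 to 162): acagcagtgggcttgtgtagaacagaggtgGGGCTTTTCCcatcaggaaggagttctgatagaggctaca
Cxcl1 (chr5:90891144-90891213, plus strand, bases 71 to 62): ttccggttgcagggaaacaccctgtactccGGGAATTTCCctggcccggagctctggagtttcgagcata
Ubd (chr17:37193847-37193891, plus strand, bases 15 to 6): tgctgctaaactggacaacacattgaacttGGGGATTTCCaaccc

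The ISRE pattern is shown in 4 further windows. Igtp and Irgm2 are interferon-inducible GTPases that act against intracellular microbes (differences 3.43 and 2.25). Gbp2 is a guanylate-binding protein (2.40), and Ctss a lysosomal protease of antigen-presenting cells (3.96). The windows of Igtp and Irgm2 are alike apart from a few letters.
Igtp (chr11:58199492-58199555, plus strand, bases 34 to 25): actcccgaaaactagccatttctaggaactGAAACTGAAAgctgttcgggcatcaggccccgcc
Irgm2 (chr11:58214883-58214952, plus strand, bases 64 to 55): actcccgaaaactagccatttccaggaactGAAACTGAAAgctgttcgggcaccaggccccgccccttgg
Gbp2 (chr3:142620574-142620643, plus strand, bases 59 to 50): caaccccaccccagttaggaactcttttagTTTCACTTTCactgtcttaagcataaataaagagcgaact
Ctss (chr3:95526735-95526785, plus strand, bases 21 to 12): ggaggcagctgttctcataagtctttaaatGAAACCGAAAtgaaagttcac

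Genes were then grouped by function, with immune mediators and oxidative metabolism left aside. Across all 5697 genes tested, 47.4% were called, 25% higher and 22.4% lower (22.2% and 19.5% without FVB female 1), the arrays of the groups lay apart with transgenic hearts above in 14.9% and below in 9.72%, and the median difference was -0.003. The list counts are read against those shares. The lists were chosen with earlier results of these data known, and genes named beyond the 3 of smallest p in a list were picked after their values were seen. Those 3 were taken only among called genes whose arrays do not overlap, so their lack of overlap follows from the rule. Counts without FVB female 1 are over the genes tested both ways, and counts with another array left out over those tested then. List counts under 5 moved by at most 2 when any single array was left out, apart from the tRNA synthetases. Leaving out FVB female 1, FVB male 1 and FVB male 2 keeps only FVB female 3 and FVB male 3 as controls, a single array of each labelled sex. Without FVB female 1, FVB male 1 and FVB male 2 together, 18 blood cell actin regulators were still called higher, and 12 branched-chain and 23 mitochondrial genes lower.

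Actin regulators known mainly from blood cells shape the cortex of migrating leukocytes. Of 22 on the array, 19 were tested and 3 were not. All 19 tested were higher, with a median of 1.74 (19 of 19 without FVB female 1), and leaving out each array kept 18 to 19. The filter took the brighter probe sets by the mean of both groups. A gene dim in FVB hearts was thus tested only if bright in transgenic ones, and part of the count may follow from that. Lcp1, plastin 2, which bundles actin in leukocytes, read 141, 164, 452, 371 and 251 in FVB against 3115 to 4559.5 (median 3913) in transgenic hearts, a difference of 4.08 (SE 0.15, adjusted p = 1.22e-11). Capg, a capping protein of macrophages, read 152, 158, 217, 235 and 143 against 1498 to 1814 (median 1648), a difference of 3.24 (SE 0.14, adjusted p = 6.24e-11). Coro1a, coronin 1A, read 198, 244, 353, 246 and 269.8 against 1268 to 2107 (median 1576), a difference of 2.67 (SE 0.15, adjusted p = 1.27e-09). The lowest transgenic array was several times the highest FVB array in each.

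In the same list Aif1, a calcium-binding actin bundler of macrophages, differed by 3.53, Myo1f, a class I myosin of leukocytes, by 2.77 and Was, the Wiskott-Aldrich syndrome protein, by 2.74. The smallest rise was that of Tagln2 at 0.74. Kinases, phosphatases and adaptors of blood cells gave a like picture, with 25 of 35 higher, 1 lower and a median of 1.07. The filter on signal left 4 more on the array untested, and part of this count may follow from it as well. Without FVB female 1 there were 25 higher of 33. Ptprc, the leukocyte phosphatase CD45, read 36.2, 29.2, 33.1, 54.1 and 76.6 against 526 to 1620.0 (median 1017), a difference of 4.27 (SE 0.23, adjusted p = 6.79e-10). Ptpn6, the inhibitory phosphatase SHP-1, differed by 2.83 ± 0.16, Ptpre, a receptor-type phosphatase, by 1.67 ± 0.11 and Ptpn22, a phosphatase of lymphocytes and myeloid cells, by 2.86. The gene that fell was Cish (-0.63), a suppressor of cytokine signalling, while its relative Socs3 rose (1.37).

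These lists moved beside the markers of macrophages. Of 22 macrophage and dendritic cell markers tested, 20 rose, with a median of 2.76, and their summed signal went from 9616 to 12936 on FVB arrays to 70181 to 84812 on transgenic ones (exact permutation p = 0.0022, two-sided). On FVB arrays, 0 of the 26 markers on the array were at the floor throughout. The filter left 4 of them untested, and part of the count of rises may follow from it too. The marker that fell, Fcgr1 (-0.76), was not called without FVB female 1. Summed T and NK cell markers read 1887 to 3640 and 3475 to 6774, and summed cardiomyocyte markers 303167 to 466907 and 162445 to 295553 (exact permutation p = 0.0065 and 0.0043). The marker lists too were chosen with earlier results of these data known. The permutation p of a marker sum, here and below, does not allow for that choice. A p of 0.0022 is also the smallest that groups of these sizes can give. The part of the makeup of cells in the gene groups was not tested.

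Actin turnover proteins that most cells use also rose, 20 of 32 higher and 2 lower, with a median of 0.61 (19 and 3 without FVB female 1). Actn1, the alpha-actinin of non-muscle cells, read 752, 477, 989, 1176 and 1218 in FVB against 1772 to 3198 (median 2665) in transgenic hearts, a difference of 1.62 (SE 0.17, adjusted p = 1.23e-06). Iqgap1, a scaffold of the actin cortex, read 534, 593, 955, 1138 and 1020.4 against 1427 to 2373 (median 1867), a difference of 1.28 (SE 0.13, adjusted p = 8.34e-07). The thymosins Tmsb10 and Tmsb4x, which hold actin monomers, differed by 2.05 and 1.33, and Myh9, a non-muscle myosin, by 1.54. The genes that fell were Gsn, gelsolin, which severs filaments (-2.28), and the muscle cofilin Cfl2 (-0.66). Of 24 tubulins, microtubule proteins and motors 9 rose and 5 fell (8 and 7 without FVB female 1). Tubulins went both ways: Tubb6 (1.32 ± 0.15), Tubb5 (0.92 ± 0.12) and Tubb2a (1.18) rose, and Tuba8 and Tuba4a, which muscle makes, fell (-0.69 and -0.69). The probe sets of Tubb6, Tubb5 and Tubb2a can bind related transcripts, so these may not be separate rises. Map7, a microtubule protein that recruits kinesin, fell from 427, 317, 313, 203 and 278 to 64.8 to 151 (median 104), a difference of -1.65 (SE 0.17, adjusted p = 1.23e-06).

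Lysosomal hydrolases rose as a group but not in full. The lysosome is the acid compartment where cells break down what they take up and their own worn parts. Of 22 tested (cathepsins left out), 15 were higher and 3 lower, with a median of 0.70, and 14 and 3 without FVB female 1. Acp5, the tartrate-resistant acid phosphatase of osteoclasts and activated macrophages, read 396, 156, 62, 109 and 96.5 in FVB against 799 to 1378 (median 997) in transgenic hearts, a difference of 2.86 (SE 0.23, adjusted p = 8.15e-08). Lipa, the lysosomal acid lipase that frees cholesterol from its esters, read 188, 66.5, 166, 356 and 119 against 662 to 1020.3 (median 856), a difference of 2.50 (SE 0.28, adjusted p = 3.44e-06). Gusb, beta-glucuronidase, differed by 1.97 ± 0.17, Gm2a, the activator of ganglioside breakdown, by 1.89, and arylsulfatase A, Arsa, by 1.39.

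The 3 that fell were Smpd1, the acid sphingomyelinase (-0.96), Gaa, the enzyme that breaks down glycogen in lysosomes (-0.89), and Ids, iduronate sulfatase (-0.81). Lysosomal membrane proteins and proton pump subunits gave 13 higher and 3 lower of 26. That count was less steady, 9 higher without FVB female 1. Slc11a1, a metal transporter of phagosomes, read 63.9, 93.6, 192, 142 and 129 in FVB against 532 to 1126 (median 837) in transgenic hearts, a difference of 2.92 (SE 0.19, adjusted p = 6.74e-09). Laptm5, of haematopoietic cells, differed by 2.24 ± 0.14. Npc2 and Npc1 hand cholesterol out of the lysosome in turn, and they moved apart: Npc2 rose by 1.57 ± 0.16 and Npc1 fell, with a difference of -1.14. Autophagy genes and ligases of muscle protein breakdown had 0 called higher and 7 lower of 17, with a median of -0.29 (1 and 8 without FVB female 1). Bnip3, a mitophagy receptor, read 1075, 1721, 1352, 1264 and 1596 against 514 to 774 (median 635), a difference of -1.10 (SE 0.17, adjusted p = 9.75e-05). Ulk1, the kinase that starts autophagy, differed by -0.74 ± 0.13, Map1lc3a, a protein of the autophagosome membrane, by -1.42, and Foxo3, a transcription factor of these genes, by -0.92.

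**Figure D4:**
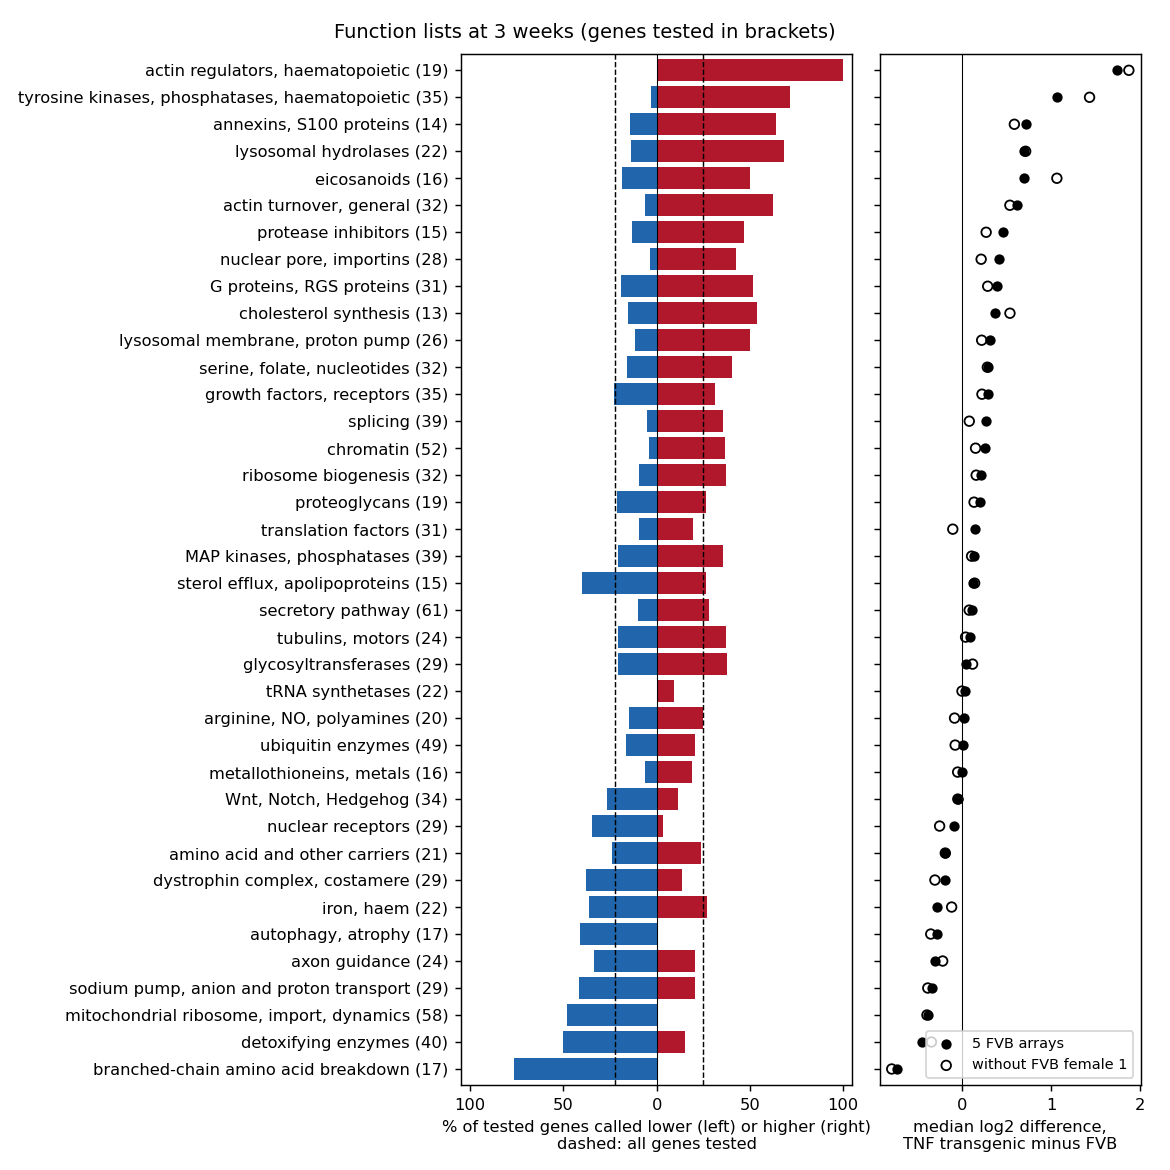
For 38 function lists (genes tested in brackets), the left panel shows the share of tested genes called lower (blue) and higher (red), with dashed lines at the shares over all genes tested, 22.4% and 25%, and the right panel the median log2 difference with all FVB arrays (filled) and without FVB female 1 (open). The 19 tested actin regulators of blood cells were all called higher. Of 17 genes listed under branched-chain amino acid breakdown, 13 were called lower and 0 higher.

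Enzymes and receptors of lipid mediators moved both ways. Phospholipase A2 frees arachidonic acid, which cyclooxygenases and lipoxygenases turn into prostaglandins and leukotrienes. Of 16 tested genes 8 rose and 3 fell, with a median of 0.69 (10 and 4 without FVB female 1). Among the phospholipases, Pla2g7, the secreted enzyme that inactivates platelet-activating factor, read 61.7, 185, 208, 175 and 181 in FVB against 1323 to 3021 (median 1996) in transgenic hearts, a difference of 3.81 (SE 0.25, adjusted p = 7.72e-09). Cytosolic Pla2g4a rose by 1.51, while Pla2g5, a secreted form known from heart, fell, with a difference of -1.19. Ptgds, which makes prostaglandin D2, fell, with a difference of -1.42. Of the receptors, Ptger4, which binds prostaglandin E2, read 28.6, 99, 135, 130.5 and 91.7 against 752 to 1699.8 (median 1359), a difference of 3.81 (SE 0.28, adjusted p = 2.52e-08). The prostacyclin receptor Ptgir read 49.4, 56.9, 58.3, 93.1 and 41.4 against 197 to 249 (median 227), a difference of 1.94 (SE 0.19, adjusted p = 5.67e-07). The groups of arrays lie apart for each receptor, as the rule for naming them required. The soluble epoxide hydrolase Ephx2, which breaks down epoxides of arachidonic acid, fell (-0.79).

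Cholesterol synthesis genes rose in part. Of 13 tested, 7 were higher and 2 lower, with a median of 0.37 (7 and 1 without FVB female 1). Sqle, squalene epoxidase, read 106, 193, 154, 94.1 and 86.2 in FVB against 346 to 526 (median 413) in transgenic hearts, a difference of 1.74 (SE 0.20, adjusted p = 3.44e-06). Idi1, which interconverts the isoprene building blocks, read 93.2, 108, 108, 129 and 113 against 229 to 433 (median 359), a difference of 1.65 (SE 0.16, adjusted p = 5.76e-07). Mvd, mevalonate diphosphate decarboxylase, differed by 1.37 ± 0.24, Hmgcs1, which makes the precursor of mevalonate, by 0.80, and Ebp, a sterol isomerase, by 0.95. Fdft1, squalene synthase, fell (-0.61). On the export side, Abca1, which loads cholesterol onto apolipoprotein A-I, rose by 1.43 ± 0.15 and the sterol-sensing receptor Nr1h3 by 0.96. Uptake split: the scavenger receptor Msr1 rose by 2.65 ± 0.22, while lipoprotein lipase, Lpl, fell from 18540.2, 18692, 15599.6, 15425 and 22989 to 6149.9 to 12882 (median 8387), a difference of -1.09 (SE 0.18, adjusted p = 1.27e-04), and the very-low-density lipoprotein receptor Vldlr fell as well (-1.36). That list of 15 gave 4 higher and 6 lower (3 and 4 without FVB female 1).

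Serine, folate and nucleotide synthesis gave 13 higher and 5 lower of 32, with a median of 0.29 (13 and 4 without FVB female 1). Mthfd2, the mitochondrial folate enzyme of dividing cells, read 261, 101, 235, 232 and 287 in FVB against 693 to 1098 (median 811) in transgenic hearts, a difference of 2.06 (SE 0.20, adjusted p = 6.12e-07). Rrm1 and Rrm2, the subunits of ribonucleotide reductase, which makes deoxynucleotides, differed by 1.60 ± 0.21 and 1.22. Psat1, of serine synthesis, rose by 1.40, while Shmt2, mitochondrial serine hydroxymethyltransferase, fell (-0.83). On leaving out each array 3 to 5 of that list fell, 3 without FVB female 3, FVB male 2, FVB male 3, transgenic female 1 or transgenic male 3. Both the kinase Dck, which salvages deoxycytidine, and Samhd1, which destroys deoxynucleotides, rose, by 1.48 and 1.56.

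Genes of arginine, creatine and polyamines gave 5 higher and 3 lower of 20 (5 and 5 without FVB female 1), a share near that of all genes. Neighbouring steps moved apart. Gatm, the first enzyme of creatine synthesis, read 126, 349.6, 567, 629.6 and 203 in FVB against 852 to 1644 (median 1381) in transgenic hearts, a difference of 2.16 (SE 0.30, adjusted p = 2.55e-05). Gamt, the second, fell (-0.66, and -0.45 without FVB female 1, where it was highest), and so did the creatine transporter Slc6a8 (-0.62). The groups overlap in Gamt, and averaging over its probe sets ended its call. Ass1, which makes argininosuccinate, read 322, 194, 202, 160.0 and 199.5 against 349 to 551 (median 453), a difference of 1.04 (SE 0.18, adjusted p = 2.14e-04). Asl, which splits it to arginine, fell (-1.10). Sat1, which acetylates polyamines for export, rose by 1.69 ± 0.22.

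Iron and haem genes likewise divided by role, 6 higher and 8 lower of 22, the same counts without FVB female 1. The haemoglobin-binding protein haptoglobin, Hp, an acute phase protein, read 445, 292, 284, 162 and 228 in FVB against 1916 to 3618 (median 2369) in transgenic hearts, a difference of 3.14 (SE 0.24, adjusted p = 3.13e-08). Ceruloplasmin, Cp, the copper ferroxidase that helps iron leave cells, read 343, 375, 384, 521 and 666 against 2045 to 4672 (median 2793), a difference of 2.77 (SE 0.21, adjusted p = 4.47e-08). Of 7 enzymes of haem synthesis tested, 5 fell: Alad (-1.11), Cpox (-0.76), Uros (-0.62), Urod (-0.56) and Alas1, the first of the path (-0.51, not called without FVB female 3). Markers of red blood cells moved with them: of 7 tested 3 fell and 0 rose (4 and 1 without FVB female 1), 1 of the haem enzymes among the 7, and their summed signal was 28210 to 40839 on FVB and 15852 to 26485 on transgenic arrays (exact permutation p = 0.0043, two-sided). As above, that p does not allow for the choice of the markers. The part of these markers in the fall of the haem genes was not tested. Metal handling gave 3 higher and 1 lower of 16 (3 and 2 without FVB female 1). The zinc transporters Slc39a6 and Slc30a4 rose by 1.02 ± 0.17 and 1.08 ± 0.22, the copper chaperone Atox1 by 0.81 ± 0.17, and the metallothionein Mt1 fell (-1.04).

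Most genes listed under branched-chain amino acid breakdown fell. Heart muscle burns leucine, isoleucine and valine in mitochondria. Of 17 genes, 13 fell and 0 rose, with a median of -0.74, and 16 fell without FVB female 1 (9 to 16 on leaving out each array, the fewest without FVB female 3). Bckdha, the catalytic subunit of the branched-chain ketoacid dehydrogenase, read 1031, 1638, 1123, 1386 and 1334 in FVB against 297 to 652 (median 555) in transgenic hearts, a difference of -1.40 (SE 0.18, adjusted p = 1.24e-05). Ivd, isovaleryl-CoA dehydrogenase of the leucine branch, read 797, 1948, 874, 943 and 1104 against 373 to 508 (median 419), a difference of -1.35 (SE 0.19, adjusted p = 4.25e-05). Auh, also of the leucine branch, read 1299, 1384, 1161, 1129 and 1444 against 435 to 834 (median 617), a difference of -1.09 (SE 0.14, adjusted p = 1.68e-05). No transgenic array reached the lowest FVB array in these, as the rule for naming them required. Dbt, the transacylase core of the complex, differed by -0.73, and its kinase Bckdk, which switches the complex off, by -0.80. On the propionate branch Mcee and Mmut differed by -0.97 and -0.56. Oxct1, which opens ketone bodies for use and is no step of this breakdown, is counted in the list and differed by -0.77. Mmut was not called without FVB female 3.

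Genes that build and keep mitochondria fell too, with smaller differences. Of 58 tested, 28 fell and 0 rose, with a median of -0.39 (26 and 0 without FVB female 1, 20 to 27 lower on leaving out each array). Mitochondrial ribosome proteins had the smallest p. Mrpl28 read 2780.1, 2038, 2037, 2495 and 2344 in FVB against 995 to 1542 (median 1251) in transgenic hearts, a difference of -0.91 (SE 0.13, adjusted p = 2.7e-05). Mrps21 read 3235, 4289, 3166, 4033 and 3299.7 against 1212 to 2379 (median 2139), a difference of -0.93 (SE 0.15, adjusted p = 1.61e-04), and Mrpl15 differed by -0.71 ± 0.15. Import was represented by Timm10 (-0.79), Tomm40 (-0.64) and the chaperone Hspa9 (-0.73), fusion by Mfn1 (-0.85), and transcription of mitochondrial DNA by the polymerase Polrmt (-0.53). The fall of cardiomyocyte markers stands beside these: 19 of 22 fell, with a median of -0.95. With quantile normalisation 13 fell, with a median of -0.49. The part of that fall in the mitochondrial lists was not tested.

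Detoxifying enzymes fell more often than they rose, beside the markers of fat cells. Of 40 cytochromes P450, transferases and related enzymes, 20 fell and 6 rose, with a median of -0.46 (16 and 7 without FVB female 1). Of 6 fat cell markers tested 3 fell and 0 rose, and their summed signal was 3189 to 4206 on FVB and 1793 to 2524 on transgenic arrays (exact permutation p = 0.0022, two-sided). As above, that p does not allow for the choice of the markers. The part of these markers in the fall of the enzymes was not tested. Cyp4b1, a P450 enzyme of fatty acids and xenobiotics, read 1272, 1468, 1743, 1628 and 1542 in FVB against 369 to 806 (median 547) in transgenic hearts, a difference of -1.44 (SE 0.16, adjusted p = 2.38e-06). Ces1d, a carboxylesterase, read 992, 1148, 492, 519 and 1574 against 7.7 to 138 (median 40.2), a difference of -3.82 (SE 0.31, adjusted p = 8.61e-08), and 3 transgenic arrays were at the floor. Alcohol dehydrogenase Adh1 differed by -2.54, and the glutathione transferases Gstk1, Gsta4, Gsto1 and Gstm5 by -1.41, -0.93, -0.90 and -0.73. Against this, Cyp1b1, a P450 enzyme of steroids induced through the aryl hydrocarbon receptor, read 106, 25.6, 86.2, 60.8 and 149.7 against 321 to 740.1 (median 502), a difference of 2.64 (SE 0.27, adjusted p = 1.23e-06). The receptor itself, Ahr, rose by 1.24, and Cyp4v3, a P450 enzyme of fatty acids, by 2.27.

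Nuclear receptors and coregulators, the transcription factors that hormones and lipids switch, gave 1 higher and 10 lower of 29 (3 and 10 without FVB female 1, and 0 and 6 without FVB male 1 and FVB male 2 as well). Nr1h3 is counted with the sterol genes above and not here. Ppara, the receptor that drives fatty acid burning, read 1980.5, 1909, 2111, 2174 and 1829.6 in FVB against 557 to 1200.4 (median 783) in transgenic hearts, a difference of -1.29 (SE 0.15, adjusted p = 3.31e-06). Zbtb16, a zinc finger factor induced by glucocorticoids, read 3248, 4607, 4784, 5261 and 6758 against 643 to 2099 (median 1558), a difference of -1.70 (SE 0.26, adjusted p = 7.65e-05). Nr0b2, a repressor of other receptors, read 276, 242, 222, 196 and 228 against 88.9 to 174 (median 104), a difference of -1.10 (SE 0.16, adjusted p = 5.87e-05). The partner receptor Rxrg fell (-1.64), as did Esrra (-0.96), a driver of mitochondrial genes, and Klf9 (-0.97), another glucocorticoid target.

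Lists of nuclear genes held more rises than falls, with small median differences. Chromatin genes gave 19 higher and 2 lower of 52, with a median of 0.26 (16 and 1 without FVB female 1). The histone variant gene H2az1 read 451, 702, 1299, 1489.6 and 1228 in FVB against 1832 to 3536 (median 2476) in transgenic hearts, a difference of 1.52 (SE 0.23, adjusted p = 7.12e-05). Hmgb2, a DNA-bending protein, differed by 1.36 ± 0.22, the maintenance DNA methyltransferase Dnmt1 by 1.11 and the de novo enzyme Dnmt3a by 1.32. Smarcd2, of the SWI/SNF complex, differed by 0.97 ± 0.15, but another of its probe sets was called lower by -0.84. Hdac5, a histone deacetylase of muscle, fell (-0.72). Nuclear pore and transport genes gave 12 higher and 1 lower of 28 (11 and 0 without FVB female 1), among them the pore protein Nup107 (0.93 ± 0.16), and Nxt1 (0.67 ± 0.12) with its partner Nxf1, which exports messenger RNA (0.78 ± 0.18).

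Splicing factors gave 14 higher and 2 lower of 39, but 6 and 1 without FVB female 1, and 9 higher without FVB male 1, transgenic female 3 or transgenic male 2. Hnrnpk and Hnrnpm, RNA-binding proteins, rose by 0.97 ± 0.13 and 0.82 ± 0.14, and Prpf19, a ligase of the spliceosome, fell (-0.85 ± 0.14). Ribosome assembly gave 12 higher and 3 lower of 32 (8 and 5 without FVB female 1), with nucleophosmin, Npm1, at 0.95 ± 0.17, Nop56 at 0.82 ± 0.15 and fibrillarin, Fbl, at 0.74 ± 0.14. Translation factors gave 6 higher and 3 lower of 31, 2 and 3 without FVB female 1, and 11 and 5 without FVB female 3. Pabpc1, the poly(A)-binding protein, read 2222, 3103, 3206, 2864 and 4015 against 5161 to 9394 (median 7432), a difference of 1.23 (SE 0.16, adjusted p = 1.95e-05). Eif1a, which helps the small subunit find the start codon, rose by 1.11 ± 0.19 and Eif2b2, a subunit of the exchange factor of initiation, fell (-0.77 ± 0.16). Of 22 tRNA synthetases 2 were called higher, Cars (0.86) and Rars (0.59), and 1, without Rars, when FVB female 1 was left out, but 6 without FVB female 3 and 4 without transgenic male 1. The secretory pathway gave 17 higher and 6 lower of 61, a share of rises near that of all genes (13 and 4 without FVB female 1), and 3 lower without FVB male 3. Sec61b, of the channel into the endoplasmic reticulum, read 539, 405, 564, 812 and 368 against 1538 to 2852 (median 2275), a difference of 2.10 (SE 0.22, adjusted p = 1.43e-06), and the small GTPase Arf6 and the glycosylation subunit Rpn1 rose by 1.62 ± 0.24 and 0.84 ± 0.15.

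Many proteins exist in a form typical of heart or skeletal muscle and another form, called general here. Of 35 such pairs listed, 21 had both members tested. The general form is not one of most cells in every pair: Ldha is also the form of skeletal muscle, set here against the heart form Ldhb, and Atp2a3 and Pygb are made in few tissues. The muscle form fell in 18 pairs and rose in 1 (Tpm1, alpha-tropomyosin), while the general form rose in 10 and fell in 3. Of all genes tested, 22.4% fell and 25% rose. Falls were more common among bright probe sets, with 39.3% lower and 19.3% higher in the brightest of 10 classes. Muscle forms such as Slc25a4 and Cox6a2 lie in that class, as do general forms such as Eef1a1 and Ldha. The part of signal level in the pairs was not tested. In 8 pairs the muscle form fell and the general form rose, against 0 pairs the other way. The general form had the higher difference in 19 of 21, with medians of -1.01 for muscle forms and 0.17 for general ones. Cardiomyocyte markers fell beside the muscle forms, 19 of 22 with a median of -0.95, and 13 with a median of -0.49 under quantile normalisation. The part of that fall in the pairs was not tested. Without FVB female 1 the 8 pairs became 6 (Eef1a1 and Pgam1 were no longer called), with quantile normalisation 7 and with a common median 6.

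Glucose transporters showed the widest split. Slc2a4, the insulin-regulated carrier of muscle and fat, read 2670.0, 4659.5, 3748, 3816 and 5179.5 in FVB against 883 to 1883 (median 1076) in transgenic hearts, a difference of -1.69 (SE 0.17, adjusted p = 1.3e-06). Slc2a1, the carrier of most cells, read 149, 109, 83.9, 137 and 57.4 against 234 to 489.6 (median 373), a difference of 1.73 (SE 0.22, adjusted p = 1.49e-05). The arrays of the groups do not overlap in either, and the order is opposite. Hexokinases, the next step of glucose use, divided the same way. Hk2, of muscle, read 3709.8, 4989.6, 3601, 3646 and 4312 against 1845 to 2425 (median 2102), a difference of -0.96 (SE 0.12, adjusted p = 8.6e-06), and Hk1 read 3534, 2346, 3336, 4360.3 and 2948 against 5362 to 8729 (median 6978), a difference of 1.11 (SE 0.19, adjusted p = 1.89e-04).

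Further pairs with opposite calls were the LIM proteins Csrp3 and Csrp1 (-1.02 ± 0.17 and 1.41 ± 0.17), the cofilins Cfl2 and Cfl1 (-0.66 ± 0.14 and 0.55 ± 0.18), the adenylosuccinate synthases Adssl1 and Adss (-1.14 ± 0.13 and 0.82 ± 0.19) and the fatty acid binding proteins Fabp3 and Fabp5 (-1.02 ± 0.18 and 0.48 ± 0.19). Elongation factor 1 alpha had Eef1a2 at -1.64 ± 0.34 and Eef1a1 at 0.41 ± 0.16, and phosphoglycerate mutase had Pgam2 at -0.65 ± 0.14 and Pgam1 at 0.64 ± 0.23. Cfl1 was not called without FVB female 3. The calls of Fabp5, Eef1a1, Pgam1 and Tpm1 were weak. Fabp5 lost its call on leaving out any single array but FVB female 1, FVB male 1 or transgenic male 3, and Eef1a1 any but FVB female 3, transgenic female 1 or transgenic male 3. Pgam1 lost it without FVB female 1, FVB male 1, FVB male 2, transgenic female 1 or transgenic male 2, and Tpm1 without FVB female 1, FVB male 1, transgenic female 1 or transgenic male 3. Both forms fell in glycogen phosphorylase (Pygm -1.41 ± 0.22, Pygb -1.23 ± 0.15), in cytochrome oxidase 7a (Cox7a1 -1.33 ± 0.18, Cox7a2 -0.98 ± 0.16) and in lactate dehydrogenase (Ldhb -1.01 ± 0.18, Ldha -0.47 ± 0.13). Both tropomyosins were called higher, Tpm1 by 0.39 ± 0.14 and Tpm4 by 0.86 ± 0.13.

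In 7 further pairs the general form was not called and the muscle form fell: Atp2a2 at -0.99 ± 0.21 beside Atp2a3 at 0.15 ± 0.26, Slc25a4 at -0.91 ± 0.20 beside Slc25a5 at -0.13 ± 0.19, Cox6a2 at -1.16 ± 0.19 beside Cox6a1 at -0.12 ± 0.15, Ckm at -1.15 ± 0.19 beside Ckb at -0.13 ± 0.20, Pfkm at -1.02 ± 0.18 beside Pfkl at -0.18 ± 0.20, Cav3 at -0.50 ± 0.13 beside Cav1 at -0.19 ± 0.15, and Actc1 at -0.70 ± 0.21 beside Actb at -1.03 ± 0.49. The Actb probe set can bind related transcripts, varied widely within both groups, and was called lower without FVB female 1, so the actin pair is uncertain. Actn2 (-0.49 ± 0.35) was not called while Actn1 rose, and neither Dmd (0.21 ± 0.31) nor Utrn (0.17 ± 0.28) was called. Actn2 and Dmd changed sign without FVB female 1.

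**Figure D5:**
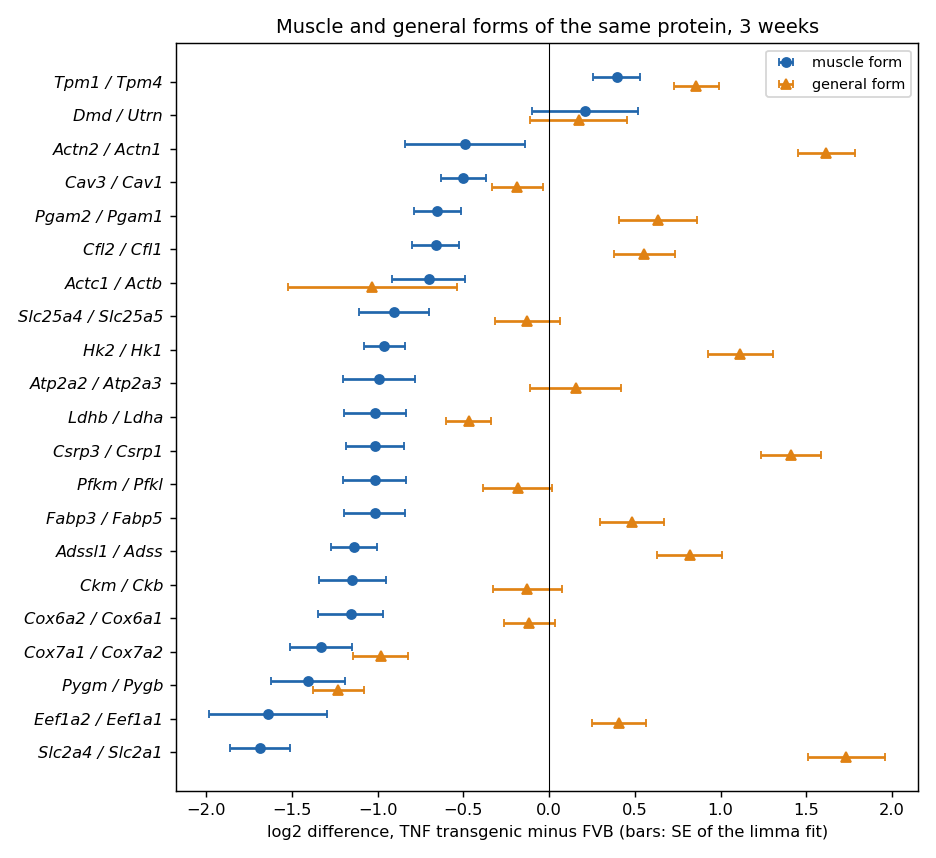
For 21 protein families, the log2 difference, transgenic minus FVB, of the muscle form (circles) and of the general form (triangles), with bars of 1 SE of the limma fit. In 19 of the 21 the general form lies to the right of the muscle form, and in 8 the pair lies on opposite sides of 0 with both called.

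The dystrophin complex and costamere, which tie the contractile apparatus to the matrix, gave 11 lower and 4 higher of 29, with a median of -0.20 (11 and 2 without FVB female 1). Dag1, dystroglycan, read 4569, 6328, 5623, 4822 and 6909.8 in FVB against 2860.1 to 3591 (median 3201) in transgenic hearts, a difference of -0.78 (SE 0.13, adjusted p = 1.75e-04). Its matrix partner laminin alpha 2, Lama2, read 1638, 1837, 1681, 2069 and 1727 against 892 to 1182 (median 1089), a difference of -0.72 (SE 0.15, adjusted p = 0.00119). Sgca, alpha-sarcoglycan, fell (-1.25), as did the laminin receptor Itga7 (-0.81 ± 0.15). Lama4, of vessel basement membrane, rose by 0.76.

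Ion pumps and acid-base carriers gave 12 lower and 6 higher of 29 (14 and 6 without FVB female 1). Those that fell included the anion exchanger Slc4a3 (-1.56), the sodium bicarbonate cotransporter Slc4a4 (-1.30) and the carbonic anhydrases Car14 (-1.86) and Car4 (-0.79). Small regulators of the sodium pump went both ways. Fxyd1, phospholemman, the cardiac regulator, fell (-1.01), while Fxyd5 rose by 1.76 and Fxyd2 read 103, 21.3, 65.3, 48.5 and 22.9 in FVB against 279 to 435 (median 389) in transgenic hearts, a difference of 2.64 (SE 0.21, adjusted p = 5.63e-08). The ATP-gated channel P2rx4 read 75.4, 165, 198, 266 and 194 against 732 to 1054 (median 941), a difference of 2.56 (SE 0.19, adjusted p = 2.25e-08). The water channel Aqp1, of endothelium, fell by far the most in the list, with a difference of -3.31 ± 0.28. Of 19 endothelial markers tested, Aqp1 among them, 5 fell and 2 rose, with a median of -0.05 (6 and 0 without FVB female 1). Their summed signal was 16402 to 33433 on FVB and 21483 to 25613 on transgenic arrays. Amino acid and other carriers gave 5 higher and 5 lower of 21 (5 and 5 without FVB female 1). Slc7a7 and its partner chain Slc3a2, which form an exporter of basic amino acids, rose by 2.40 ± 0.18 and 0.86 ± 0.15, and the vitamin C transporter Slc23a2 by 0.79 ± 0.15.

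Signalling lists held clear single genes, and not all of their counts lay close to the background. Of G protein and RGS genes tested, 51.6% rose, against 25% of all genes tested. Growth factors and their receptors gave 11 higher and 8 lower of 35 (11 and 7 without FVB female 1). Members of the VEGF family moved both ways. Vegfb (-1.05), Vegfa (-0.85) and their receptor Flt1 (-1.13), of blood vessels, fell. Vegfc, of lymphatic vessels, read 116, 147, 109.8, 174 and 73.3 in FVB against 330.3 to 444 (median 341) in transgenic hearts, a difference of 1.56 (SE 0.18, adjusted p = 5.58e-06), and its receptor Flt4 rose by 0.83. Vegfa lost its call without FVB female 3 and without transgenic female 3. Kit, the stem cell factor receptor, rose by 1.83 ± 0.19. Csf1r, of macrophages, rose by 2.30 ± 0.18, while another of its probe sets was called lower by -1.02.

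Axon guidance genes gave 5 higher and 8 lower of 24 (4 and 5 without FVB female 1). The class 4 semaphorins, which immune cells also carry, rose the most: Sema4d read 142, 47.3, 259, 177 and 161 in FVB against 949.7 to 2140.2 (median 1589) in transgenic hearts, a difference of 3.57 (SE 0.27, adjusted p = 2.89e-08). Sema4a read 171, 177, 259.6, 145 and 248 against 1248 to 2689.7 (median 1604), a difference of 3.13 (SE 0.19, adjusted p = 3.26e-09). Ephrin B3, Efnb3, fell from 1590.3, 1633, 2171, 2092 and 2093 to 442 to 895 (median 665), a difference of -1.53 (SE 0.21, adjusted p = 2.8e-05), and netrin 1, Ntn1, fell too (-1.01). Dpysl3, a protein of growing axons, rose by 1.78.

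MAP kinase genes gave 14 higher and 8 lower of 39 (11 and 9 without FVB female 1), and 10 and 11 with quantile normalisation. Dusp6, the phosphatase that ERK induces and that shuts ERK off, read 359, 319, 554, 695 and 467 in FVB against 1108 to 1552 (median 1383) in transgenic hearts, a difference of 1.63 (SE 0.16, adjusted p = 7.69e-07). Mapk7, ERK5, rose by 1.91 ± 0.23 and Nras by 0.93 ± 0.15. The stress genes Gadd45b, Gadd45g and Gadd45a rose by 1.09, 0.99 and 0.68. The muscle-rich p38 gamma, Mapk12, and the kinase Mapk10 fell (-0.65 and -0.78).

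G protein subunits and RGS proteins, which end G protein signals, gave 16 higher and 6 lower of 31, with a median of 0.39 (15 and 4 without FVB female 1). Gng10 read 444, 641, 686, 834 and 688 in FVB against 1332 to 2037 (median 1798) in transgenic hearts, a difference of 1.46 (SE 0.15, adjusted p = 1.28e-06), and Gng12 rose by 1.13 ± 0.13. Rgs10 rose by 1.63 ± 0.18, and Rgs5, of pericytes, and Rgs2 fell (-1.04 and -0.93), both without a call when FVB female 3 was left out. Of 11 smooth muscle and pericyte markers tested, Rgs5 among them, 4 fell and 3 rose, with a median of 0.10 (2 and 3 without FVB female 1). Their summed signal was 11658 to 13448 on FVB and 13326 to 15978 on transgenic arrays. The receptor kinase Grk5 rose by 1.19. Wnt, Notch and Hedgehog genes gave 4 higher and 9 lower of 34, and 6 and 3 without FVB female 1, so no direction is given for them. Their count of falls was 5 without FVB male 1, FVB male 3 or transgenic female 3. Rbpj, the DNA-binding partner of Notch, and Mfng, which adds sugars to Notch, rose by 0.98 ± 0.23 and 0.64 ± 0.12.

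Annexins and S100 proteins, calcium-binding proteins of membranes and cytosol, gave 9 higher and 2 lower of 14, with a median of 0.72, and 9 higher on leaving out any single array. S100a4, of fibroblasts and leukocytes, read 113, 142, 125, 160.3 and 155 in FVB against 1203 to 2038 (median 1727) in transgenic hearts, a difference of 3.59 (SE 0.16, adjusted p = 5.37e-11). Anxa1, which dampens inflammation, rose by 1.81 ± 0.13, Anxa4 by 1.88 and Anxa3 by 1.19 ± 0.15. S100a1, the form of cardiomyocytes that aids calcium cycling, fell (-1.07).

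Protease inhibitors gave 7 higher and 2 lower of 15 (7 and 1 without FVB female 1). The cystatins Cst7 and Cstb, which block lysosomal proteases, rose. Cstb read 1414, 1096, 1321, 1524 and 1282 in FVB against 4686 to 7755 (median 5441) in transgenic hearts, a difference of 2.10 (SE 0.15, adjusted p = 2.75e-08), and Cst7 differed by 3.55 ± 0.27. Serpina1b, an alpha-1 antitrypsin, rose by 2.71 ± 0.21, from a probe set that can bind related copies. Proteoglycans gave 5 higher and 4 lower of 19 (3 and 3 without FVB female 1), 2 or 3 higher without FVB male 1, FVB male 3, transgenic female 1, transgenic female 3 or transgenic male 3, and 2 and 3 with quantile normalisation. Biglycan, Bgn, read 4219, 4564, 6462, 5449 and 4431 against 7414 to 12208 (median 8783), a difference of 0.94 (SE 0.15, adjusted p = 1.01e-04), while its relatives decorin, Dcn, and osteoglycin, Ogn, fell (-0.55 and -1.15). Glypican 1, Gpc1, fell from 4830.2, 6559, 5592, 5708 and 5532 to 1529.7 to 3414 (median 2091), a difference of -1.42 (SE 0.19, adjusted p = 1.86e-05), and the hyaluronan receptor Cd44 rose by 2.33 ± 0.34.

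Sugar-transferring enzymes and galectins gave 11 higher and 6 lower of 29 (12 and 4 without FVB female 1), with 3 lower when transgenic female 1 or transgenic male 2 was left out. B4galnt1, which makes the complex gangliosides, was under the floor on 4 of 5 FVB arrays and read 289 to 927 (median 331) on the transgenic ones, a difference of 3.02 (SE 0.27, adjusted p = 2.21e-07). Ugcg, which makes the first glycolipid of that path, rose by 1.64, and the galectin-binding protein Lgals3bp by 2.50 ± 0.16. Galectin 4, Lgals4, fell from 496, 762, 738, 717 and 646 to 150.3 to 286 (median 204), a difference of -1.68 (SE 0.21, adjusted p = 8.13e-06). Ubiquitin enzymes gave 10 higher and 8 lower of 49, a share under that of all genes (7 and 5 without FVB female 1), and 4 or 5 lower without FVB male 1, transgenic female 1 or transgenic male 2. Ubiquitin-like modifiers and their enzymes known from interferon responses were among the risers: Ubd (2.02 ± 0.25), Isg15 (0.91), its activator Uba7 (1.15) and its conjugating enzyme Ube2l6 (0.93). Usp2, a clock-controlled deubiquitinase, read 2162, 2333, 2609, 2485 and 3185 against 689 to 1484 (median 1058), a difference of -1.23 (SE 0.14, adjusted p = 3.13e-06). Fbxw7, which marks cyclin E and Myc for destruction, fell (-1.04 ± 0.16), and so did the conjugating enzyme Ube2b (-0.64 ± 0.13).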

How the data were processed

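RNA of whole hearts was measured on Affymetrix U74Av2 arrays, per the labels. The deposited intensities are 1 linear signal per probe set and array; its software, background method and scaling are not given in the sources here. The arrays' trimmed means lay between 494 and 497, so values were used as deposited. Trimmed means do not show the dim end, which read higher on FVB female 1. Of 12422 non-control probe sets, 10833 have 1 gene symbol, 396 several and 1193 none. A gene is its probe set of highest signal. Ces1d, Cyp4b1, Gstm5, S100a1, Anxa1 and Gamt, among others named, are read by probe sets that can bind related transcripts.

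Signals under the 25th percentile of all values (44.9) were set to it and log2 taken. One limma 3.58.1 fit (R 4.3.3), of the kind tested on simulated data, held the means of 6 groups over 17 distinct arrays (11 residual degrees of freedom). The contrast averaged the female and male differences. The brighter 60% of probe sets by the mean of both groups were tested, and p-values adjusted over all of them. The number of arrays limits the precision.

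The genes named were the 3 called genes of smallest p without overlap in each function list, the 10 highest and lowest outside every list, isoform pairs and Tnf; others are named in the text as picked later. One list is not reported here. Members and lists were chosen with earlier results of these data known. Alternatives changed scaling, floor, filter, fit, weights, the sex term, a replicate block and single arrays. Promoter sequences are from RefSeq, matched by symbol to 4599 of 5697 genes tested.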

Additional observations from a re-analysis of the deposited data

Results flagged for a closer look

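A gap test of the highest and lowest array in each group marked 46 signals of the named genes in all, where chance marks about 1 in 20 groups. It ran on 280 named genes in both groups, and that share alone would mark many. Single marks, those on transgenic arrays among them, are therefore listed without being read as results. FVB female 1 accounted for 27 of the 46. It stood above the other FVB arrays in Eif2b2 (1001), Cst7 (118), B4galnt1 (59.8), Ubd (178), Napsa (75.3), H2-M2 (491), Bcl3 (254), Cryl1 (6500.0), Tnf (125), Aif1 (164), Gaa (3916), Grk5 (497), Il1rn (63) and Timm10 (536). It stood below them in Npm1 (1143), Pla2g7 (61.7), Slc30a4 (108), Aqp1 (1650.1), Rpn1 (403), Tmem176a (161), Eef1a1 (12329), Pgam1 (709.7), Adh1 (253), Ebp (58.4), Gadd45g (104), Polrmt (358) and Ugcg (199). The test used signals set to the floor. In Cst7, B4galnt1, Napsa, Tnf, Aif1 and Il1rn the other 4 FVB arrays were tied at the floor. Any signal of FVB female 1 above it was then marked, so the rate of 1 in 20 does not hold for these. FVB female 3 lay below the other FVB arrays in Mthfd2 (101), Slc3a2 (892) and Klf9 (2987). FVB male 1 lay below the other FVB arrays in Gadd45b (54.2) and Socs3 (57.3). Among the transgenic arrays, transgenic female 2 lay above the others in Nr0b2 (174) and Cpox (377) and below the others in Gatm (852), Slc39a6 (201), Napsa (488) and Flt4 (422). Among the transgenic arrays, transgenic male 1 lay above the others in Foxo3 (1356) and below the others in Adh1 (51.4). Among the transgenic arrays, transgenic male 2 lay above the others in Vegfc (444) and Anxa1 (4546) and below the others in Penk (99.6). Among the transgenic arrays, transgenic male 3 lay above the others in Slc7a7 (782) and B4galnt1 (927) and below the others in Mcee (538).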

How the results depend on the processing

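Over the 11 arrays left out singly, 2998 to 3833 probe sets were called, 1581 to 2037 higher and 1399 to 1796 lower, with 717 to 876 at least 2-fold higher and 329 to 580 at least 2-fold lower. The count of 580 came without FVB female 3. Array weights, in which FVB female 1 had a weight of 0.264, called 1042 lower. Testing only the brightest 40% left 442 at least 2-fold higher and 229 lower, from fewer probe sets tested, and log2 of the value plus 50 left 233 lower. The replicate block called 3304 probe sets, 1715 higher and 1589 lower, 735 and 347 past 2-fold. The numbers do not pair the arrays: deviations of same-numbered arrays of different groups correlated at -0.324 to 0.255 (15 pairs, 4 over 0.1) and of other arrays at -0.342 to 0.265. Without FVB female 1, FVB male 1 and FVB male 2, an alternative chosen after seeing the data, 2569 were called.

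With quantile normalisation 46.4% of the calls were higher, with a common median 48.7%, against 51.6% as deposited, and the median of all tested probe sets moved from -0.02 to -0.06 and -0.03. Of 270 called genes named, 239 kept direction and call in every alternative that tested them, 31 lost the call in at least 1, and 0 reversed. Genes that were not called changed sign: Cox6a1 with quantile normalisation (0.038), and Dmd with the floor at the 40th percentile (-0.13) and without FVB female 1, FVB male 1 and FVB male 2 (-0.43). With single arrays left out, Ckb ran from -0.26 to 0.020 (the highest without transgenic female 1), Atp2a3 from -0.10 to 0.41 and Cav1 from -0.37 to 0.0042 (changing sign without FVB female 3), and Actn2 from -1.10 to 0.12 and Dmd from -0.31 to 0.73 (changing sign without FVB female 1). The causes were not tested. Of genes called, Bckdk, Dbt, Fdft1, Gadd45g, Gamt, Ids, Mapk12, Rxrg, Tuba4a and Urod among others lost the call without FVB female 1, FVB male 1 and FVB male 2. Averaging over the probe sets of a gene ended the calls of Cryl1, Gamt, Smarcd2 and Tubb2a. Signals near the floor limit what can be said of dim genes, and 561 probe sets not tested lay at or under it on all 11 arrays.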
